A study of Mus musculus with 6 samples.

Results

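The type I interferon antiviral effector genes are the genes that interferon switches on to detect, degrade or trap viruses inside the cell. They were taken here as a fixed list of 40 gene symbols, which was proposed with earlier results of these data known. The expression table held 39 of them among 35027 genes. The fortieth, Mb21d1, had no row under that symbol, and its current symbol, Cgas, is described apart from the list. Total RNA of tumor cells from mouse thyroid cancers was sequenced in 6 libraries, to compare tumors driven by nuclear YAP alone (YAP, 3 libraries) with tumors that also carried mutant Braf (BrafYAP, 3 libraries, numbered 1, 2 and 6). YAP is the transcriptional co-activator that the Hippo pathway holds out of the nucleus, and the S127A form stays nuclear. Braf is a kinase of the MAPK cascade, and its V600E form is constitutively active. All mice carried a Cre transgene that recombines in thyroid follicular cells, the RIK-rtTA allele, which then makes the doxycycline-dependent activator together with the red fluorescent protein Kate, and tetO-YAP S127A. BrafYAP mice carried in addition LSL-Braf V600E, expressed from the endogenous gene. Both groups therefore expressed mutant YAP and were fed doxycycline chow from 4 weeks of age, and there was no library of normal thyroid or of tumors without YAP S127A. Each library came from about 20000 Kate-positive cells sorted after digestion of the tumor. The labels describe 3 pooled tumors for each YAP library and 1 tumor for each BrafYAP library, so genotype and pooling cannot be told apart. No label names a batch, and p-values measure the spread between these libraries.

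Type I interferons signal through the receptor IFNAR1/IFNAR2 and the kinases JAK1 and TYK2 to a transcription factor complex that contains STAT2 and IRF9 and binds the interferon-stimulated response element of target promoters. The same element is read by other IRF factors, so that the genes can also be switched on from nucleic acid sensors inside the cell. The targets then act at every step of infection, from entry at the membrane to translation of viral RNA and release of particles, and epithelial cells and macrophages both express them.

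The core of the response element, GAAA, any 2 bases and again GAAA, was looked for in the window from 250 bases before to 50 after each RefSeq start (GRCm38.p6), on either strand. RefSeq windows matched 30 of the 40 symbols, and 13 of these 30 genes (43.3%) held the core. Of all 27025 genes with a window, 1079 (3.99%) held it, and of the 32851 windows 3.44%. The palindromic motif TTCNNNGAA of cytokine-responsive promoters, which does not contain the core, was in 8 of the 30 members (26.7%) and in 9.55% of all genes. A match is a description of the letters and not of a bound site. The 150 bases before the start are shown for the members that passed the test below, for Ifit1, which was chosen after its values were seen because one BrafYAP tumor kept it high, and for Ifitm2, whose level differed least between the groups. They run 5′ to 3′ in the direction of the gene, and capitals mark the letters of the core on either strand. Isg15 (chr4:156200819-156200968, minus strand) held 3 overlapping matches, the nearest beginning 66 bases before the start. Rsad2 (chr12:26456453-26456602, minus strand) held 1, Bst2 (chr8:71537473-71537622, minus strand) 2 that overlap, and Ifit1 (chr19:34640739-34640888, plus strand) 2 that do not. Ifitm2 (chr7:140955962-140956111, minus strand) held 1 at 46 bases before the start, and Oasl1 (chr5:114923090-114923239, plus strand) held none in this window.
Isg15: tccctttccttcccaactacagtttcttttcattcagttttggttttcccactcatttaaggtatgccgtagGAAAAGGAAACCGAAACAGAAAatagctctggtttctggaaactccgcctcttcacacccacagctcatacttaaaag
Rsad2: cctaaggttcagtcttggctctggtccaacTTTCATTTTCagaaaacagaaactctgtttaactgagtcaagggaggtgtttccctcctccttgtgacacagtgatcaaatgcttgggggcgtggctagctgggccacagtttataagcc
Oasl1: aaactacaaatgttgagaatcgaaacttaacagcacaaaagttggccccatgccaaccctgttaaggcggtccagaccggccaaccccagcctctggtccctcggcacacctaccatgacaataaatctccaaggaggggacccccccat
Bst2: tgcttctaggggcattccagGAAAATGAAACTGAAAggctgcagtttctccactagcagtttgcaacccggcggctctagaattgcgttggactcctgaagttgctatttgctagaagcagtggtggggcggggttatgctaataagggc
Ifit1: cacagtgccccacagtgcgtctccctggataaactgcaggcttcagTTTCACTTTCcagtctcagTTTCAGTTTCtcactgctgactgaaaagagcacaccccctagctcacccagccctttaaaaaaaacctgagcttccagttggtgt
Ifitm2: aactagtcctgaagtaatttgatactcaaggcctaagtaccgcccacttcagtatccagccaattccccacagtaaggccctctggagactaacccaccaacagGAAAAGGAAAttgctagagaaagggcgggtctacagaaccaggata
Oasl1 thus passed the test without a match in the window, and Ifitm2 held a match and did not pass.

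The deposited values are TPM, a measure of transcripts relative to gene length and library total. From the values it was inferred that each gene was divided by its whole genomic span, introns included. The deposited TPM are used here to compare 1 gene between libraries and not to compare genes. Where genes are compared with each other, the values were recomputed with the exonic length and named exonic TPM. Because genes with long introns have low deposited values, only 23 of the 39 members reached the mean of 1 TPM needed for the main test. All 39 could be tested after the length was multiplied back, as scaled reads, and the 2 scales are named at each value. A log2 fold change is BrafYAP relative to YAP, so that a negative value is a lower level in BrafYAP, and on the TPM scale it is of log2(TPM + 1), which understates changes of low genes. Estimated library depth was 26.2 to 36.9 M reads. Of the thyroid markers, Pax8 was present in every library, at 75.9 to 220 exonic TPM, and the sodium-iodide symporter Slc5a5 was at 0.521 exonic TPM or lower in 5 of the 6 libraries. The macrophage lysozyme gene Lyz2 was at 3010 to 38900 exonic TPM in these Kate-positive sorts.

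Antiviral effectors were lower in the BrafYAP than in the YAP libraries. On the TPM scale 4 of the 23 members tested fell in BrafYAP, namely Isg15, Rsad2, Oasl1 and Bst2, each with an adjusted p of 0.0468 in the limma fit over all 7319 genes, and none rose. In that fit 0.246% of all genes were called, and 0.164% were called lower. At an unadjusted p under 0.05, 19 of the 23 members were lower and 0 higher, against 9.17% and 10.7% of all genes. All 23 log2 fold changes were negative, as were 55.3% of those of all genes, and 16 were at -1 or below, against 4.89% of all genes. Their median was -1.28, against -0.06 for all genes tested. In 18 of the 23 every BrafYAP library was below every YAP library, against 16.4% of all genes. Rsad2, Ifit2, Ddx58, Oasl1, Zbp1 and Xaf1 averaged only 0.209, 0.486, 0.667, 0.261, 0.241 and 0.795 TPM in BrafYAP. These genes reached the minimum mean of 1 TPM through the YAP libraries. The counts on this scale, and the calls of Rsad2 and Oasl1, are therefore not independent of that minimum, which applied to all genes. The adjusted p of 0.0468 is close to the threshold. On leaving out replicate 1 or 3 of YAP, or 1 or 2 of BrafYAP, 0 members and 0 of all genes were called. In these fits 16 to 19 members were at an unadjusted p under 0.05, as were 1028 to 1142 of the 7279 to 7349 genes tested. Without YAP replicate 2, 7 members were called, all lower and among them these 4. Of all 7276 genes tested there, 61 were called lower and 404 higher. Without BrafYAP replicate 6, 2 members were called, both lower and among them Isg15. Of all 7258 genes tested there, 12 were called lower and 8 higher.

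With the length division undone, the same direction covered the whole list. On scaled reads all 39 log2 fold changes were negative, from -5.77 to -0.12, as were 55.6% of those of all genes, with a median of -1.93 against -0.12 for all 16832 genes tested. Of the 39, 34 were at -1 or below, against 14.7% of all genes. At an unadjusted p under 0.05, 31 members were lower and 0 higher, where 10.5% of all genes were lower and 9.68% higher. The groups did not overlap in 28 members, against 17.1% of all genes. Oas2, at a mean of 2.22 scaled reads in BrafYAP and 142 in YAP, reached the minimum of 10 through the YAP libraries. After adjustment limma called 0 of the 39 on this scale, and 0% of all genes, with adjusted p from 0.0517 (Rsad2) to 0.835 (Ifitm2), and voom on the estimated reads also called 0, with 31 members at an unadjusted p under 0.05. In these sorted cells fewer cells of an expressing type and less RNA per cell cannot be told apart.

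**Figure D1:**
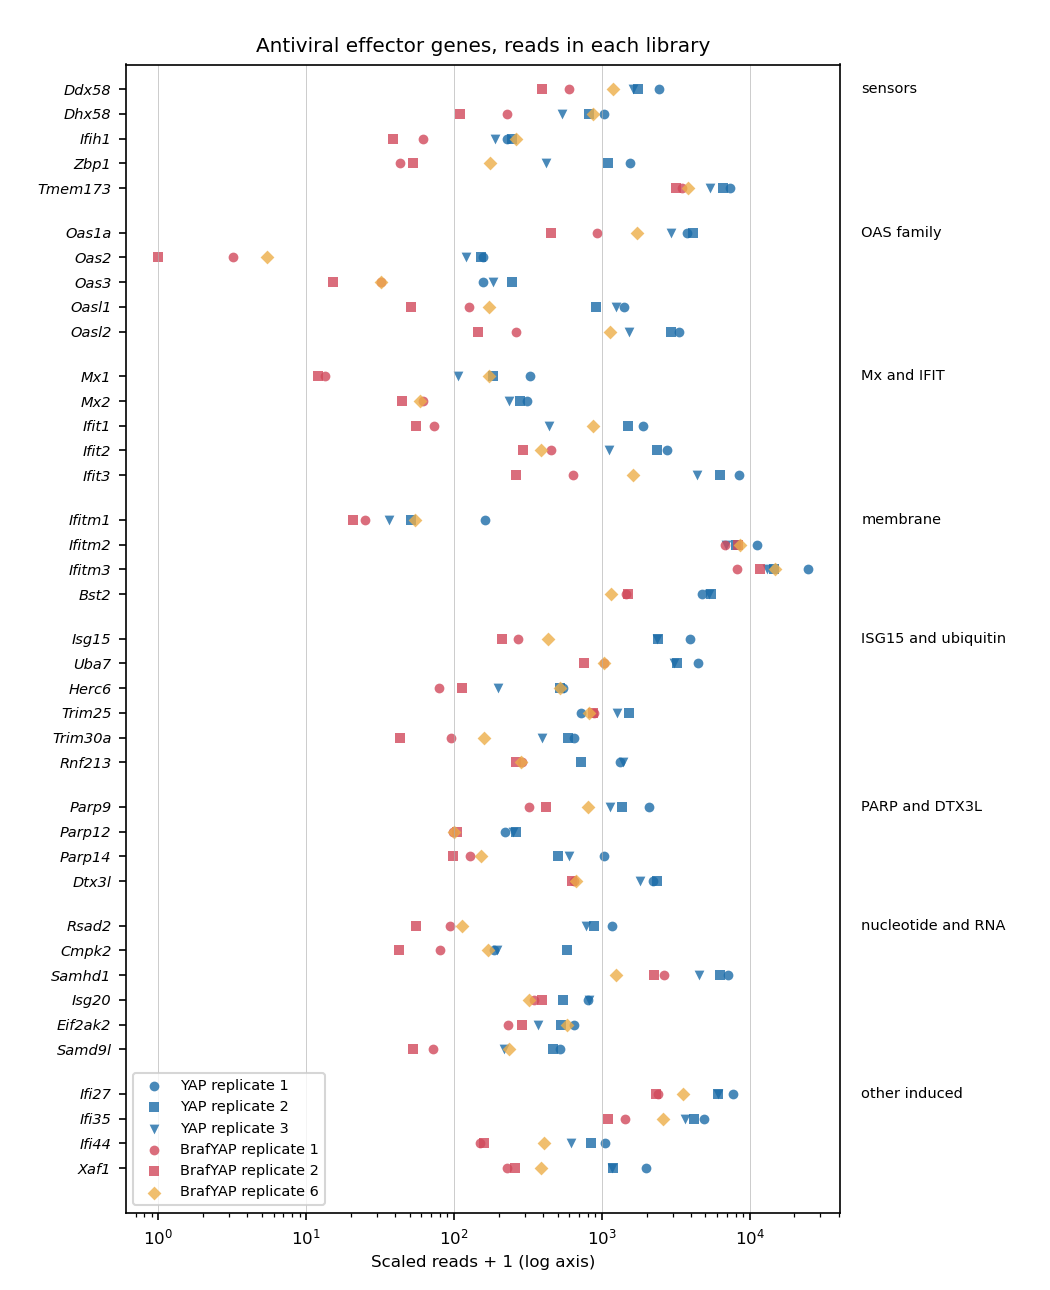
Scaled reads plus 1 (horizontal, log axis) of the 39 antiviral effector genes, grouped by role, with 1 point a library: YAP in blue, BrafYAP replicates 1 and 2 in red and BrafYAP replicate 6 in orange. In 28 genes every BrafYAP point is to the left of every YAP point, and the median ratio to the YAP mean was 1.24, 1.02 and 0.813 in YAP replicates 1, 2 and 3 and 0.249, 0.177 and 0.442 in BrafYAP replicates 1, 2 and 6.

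Among the nucleic acid sensors, 3 of the 5 in the table were lower at an unadjusted p under 0.05 on scaled reads, against 10.5% of all genes. None passed after adjustment. Zbp1, which detects Z-form nucleic acid and can start cell death, was at 4.15, 2.98 and 1.12 TPM in the YAP libraries. In the BrafYAP libraries it was at 0.114, 0.140 and 0.469 TPM. Every BrafYAP library was below the lowest YAP library, and the mean was 11.4-fold lower (log2 fold change on scaled reads -3.60, SE 0.69, limma adjusted p 0.0861). Tmem173, the adaptor STING that relays the signal of cytosolic DNA, differed less: 35.3, 31.6 and 25.9 TPM in YAP and 16.8, 15.4 and 18.3 TPM in BrafYAP. Ddx58, the RNA helicase RIG-I, was at 2.25, 1.60 and 1.49 TPM in YAP and 0.552, 0.363 and 1.09 TPM in BrafYAP. Neither overlapped between the groups. Ifih1, which encodes the long-RNA sensor MDA5, and Dhx58, which encodes their regulator LGP2, did overlap, because BrafYAP replicate 6 was as high as the YAP libraries, and their log2 fold changes on scaled reads were -1.36 and -1.45. Cgas, the DNA sensor upstream of STING, had few reads. Its estimated reads were 13, 77 and 27 in YAP and 14, 45 and 48 in BrafYAP, with a log2 fold change on scaled reads of -0.21 (95% CI -2.10 to 1.69), an interval that holds changes in either direction.

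The oligoadenylate synthetases, which make the second messenger that activates RNase L, and their OASL relatives did not overlap between the groups in any of the 5 genes. Of all genes, 17.1% were lower without overlap on scaled reads. Oasl1, which acts on the translation of Irf7, fell. It was at 3.18, 2.05 and 2.83 TPM in YAP and at 0.283, 0.114 and 0.386 TPM in BrafYAP, with a log2 fold change of -1.54 (SE 0.20) on log2(TPM + 1) and a mean 10.3-fold lower. Oas2 had almost no reads in the BrafYAP libraries. Its estimated reads were 152, 124 and 115 in the YAP libraries and 2, 0 and 5 in the BrafYAP libraries. The log2 fold change on scaled reads was -5.77 (95% CI -7.55 to -4.00, limma adjusted p 0.0544), the widest of the list. Oas1a was at 11.1, 12.2 and 8.63 TPM in YAP and 2.74, 1.33 and 5.11 TPM in BrafYAP. Oasl2, an OASL protein with synthetase activity, was at 7.24, 6.37 and 3.31 TPM in YAP and 0.567, 0.310 and 2.47 TPM in BrafYAP. In both genes BrafYAP replicate 6 was the highest BrafYAP library and still below YAP replicate 3. For Oas3, the large synthetase, the log2 fold change on scaled reads was -2.95. Oas1a, Oas2 and Oas3 stand together at chr5:120730333-120907521 (mm10, GENCODE M21), and Oasl1 and Oasl2 at chr5:114896936-114937915. Oas1a has close copies in that cluster, and its share of reads is uncertain. Its copy Oas1g was at 3.33, 3.11 and 2.13 TPM in YAP and 0.509, 0.243 and 1.36 TPM in BrafYAP.

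The Mx GTPases, which trap viral ribonucleoproteins, and the IFIT proteins, which bind foreign RNA ends, were all lower at an unadjusted p under 0.05 on scaled reads (5 of 5, against 10.5% of all genes). Their log2 fold changes were -3.24 to -2.32. Ifit3 was at 53.5, 39.9 and 28.1 TPM in YAP and 4.08, 1.68 and 10.4 TPM in BrafYAP, a 7.53-fold lower mean without overlap (log2 fold change on log2(TPM + 1) -2.90, SE 0.54, limma adjusted p 0.0826). Ifit2 was at 3.54, 3.04 and 1.43 TPM in YAP and 0.580, 0.378 and 0.500 TPM in BrafYAP. These 2 genes differed in BrafYAP replicate 6, which was 3.62-fold above the mean of the other 2 BrafYAP libraries for Ifit3 and 1.04-fold for Ifit2. Mx1 and Ifit1 overlapped between the groups through that library alone, and Mx2 did not overlap (log2 fold change on scaled reads -2.32). Ifit1, Ifit2 and Ifit3 lie within chr19:34550694-34650009 (mm10), and Mx1 and Mx2 within chr16:97447035-97560900. Ifit3 shares sequence with the adjacent copy Ifit3b, so the division of reads between them is uncertain. Ifit3b was itself at 8.06, 8.00 and 6.79 TPM in YAP and 0.823, 0.391 and 2.74 TPM in BrafYAP.

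Antiviral proteins of the membrane divided. Bst2, which encodes tetherin and holds budding particles at the cell surface, fell. It was at 48.9, 57.0 and 54.7 TPM in YAP and 15.0, 15.5 and 11.9 TPM in BrafYAP. Its mean was 3.79-fold lower (53.5 ± 4.20 against 14.1 ± 1.93 TPM, SD, n = 3 each), with a log2 fold change of -1.86 (SE 0.24) on log2(TPM + 1), and the spread within each group was narrow. The IFITM proteins, which block fusion of virus with the cell, did not pass the test. Ifitm3 was at 687, 408 and 368 TPM in YAP and 229, 329 and 411 TPM in BrafYAP, and the groups overlapped. Ifitm2 was at 324, 231 and 198 TPM in YAP and 195, 238 and 247 TPM in BrafYAP. Its log2 fold change on log2(TPM + 1) was -0.12 (SE 0.29), and on scaled reads the 95% interval ran from -0.81 to 0.56, so that a decrease to near the median of the list was outside it. The sign of the Ifitm2 change turned without YAP replicate 1 (0.077) and with weights per library (0.049). Ifitm1 had only 21 to 156 estimated reads a library and a log2 fold change of -1.14 on scaled reads. The 3 Ifitm genes are neighbors at chr7:140954837-141010770 (mm10), and Bst2 is at chr8:71534255-71537456.

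**Figure D2:**
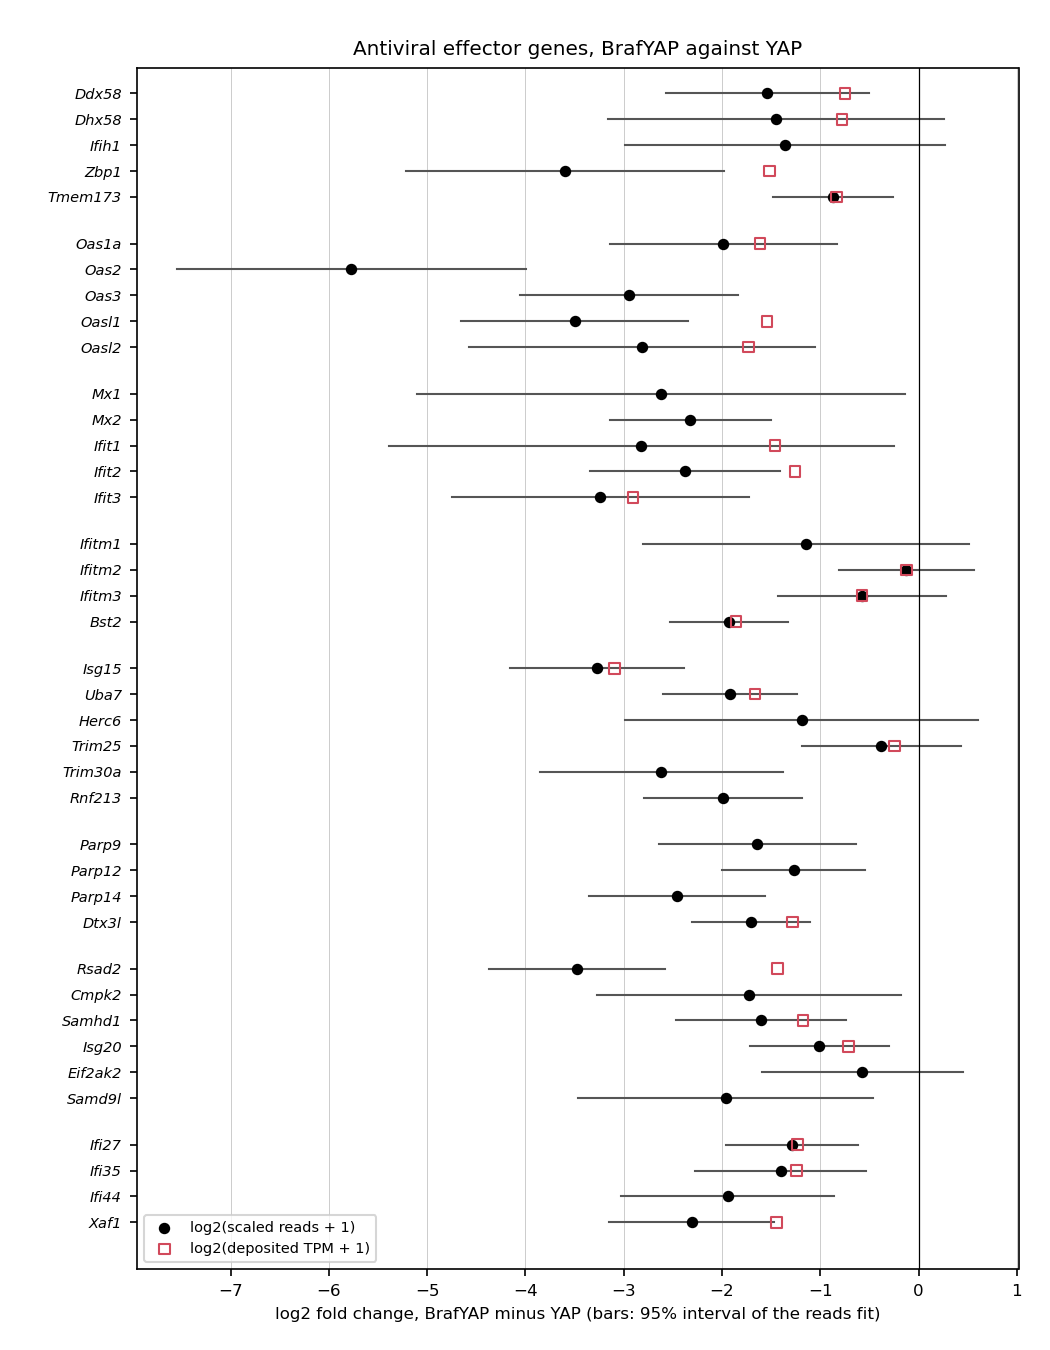
Log2 fold change, BrafYAP relative to YAP, of the 39 members in the same order (horizontal), on scaled reads as black points with the 95% interval of the limma fit as bars, and on log2(TPM + 1) as red squares for the 23 members tested there. Every point is left of 0, from -5.77 for Oas2 to -0.12 for Ifitm2, the intervals of Ifih1, Dhx58, Ifitm1, Ifitm2, Ifitm3, Herc6, Trim25 and Eif2ak2 cross 0, and the squares of low genes such as Rsad2 (-1.43 against -3.48) lie nearer to 0.

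Isg15, a ubiquitin-like protein that is attached to other proteins or secreted, had the widest log2 fold change on log2(TPM + 1) of the 23 members tested on that scale, although not the widest ratio of means. It was at 93.8, 56.6 and 56.0 TPM in YAP and 6.43, 5.02 and 10.2 TPM in BrafYAP. The mean fell from 68.8 ± 21.7 to 7.21 ± 2.65 TPM (SD, n = 3 each), a 9.55-fold lower level, with a log2 fold change of -3.09 (SE 0.34) on log2(TPM + 1). Isg15 lies at chr4:156199424-156200818 on the minus strand. Uba7, the enzyme that activates ISG15 for conjugation, was at 17.2, 12.5 and 11.8 TPM in YAP and 4.02, 2.92 and 4.02 TPM in BrafYAP, without overlap, and missed the threshold with a limma adjusted p of 0.0511. Herc6, the ligase that attaches ISG15 in the mouse, was at 530, 421 and 190 estimated reads in YAP and at 71, 143 and 584 in BrafYAP, so the last step of the pathway overlapped between the groups. Among the other ubiquitin genes, Trim30a and the giant ring-finger protein Rnf213 did not overlap (log2 fold changes on scaled reads -2.62 and -1.99). Trim25, the ligase that acts with RIG-I, was at -0.38 with a 95% interval from -1.19 to 0.43. Trim30a has close neighbors of the same family, and its share of reads is uncertain.

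PARP9 and DTX3L form a complex that ubiquitylates histones, and both genes were lower without overlap, as were the other 2 of the 4 genes of this group. The share of all genes lower without overlap on scaled reads was 17.1%. Dtx3l was at 5.83, 6.19 and 4.74 TPM in YAP and 1.71, 1.65 and 1.75 TPM in BrafYAP, with a limma adjusted p of 0.0511. Parp9 was at 2.03, 1.33 and 1.10 TPM in YAP and 0.309, 0.408 and 0.776 TPM in BrafYAP. The 2 genes overlap on opposite strands at chr16 and no strand is stated for the counting, so their reads are not fully separate. Parp14, an ADP-ribosyltransferase beside them, had the widest log2 fold change of the group, -2.46 on scaled reads, with 1006, 414 and 584 estimated reads in YAP and 115, 124 and 169 in BrafYAP. Parp12, which has zinc fingers that bind RNA, was at -1.27.

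Enzymes that act on nucleotides and viral RNA were lower at an unadjusted p under 0.05 in 5 of 6 genes on scaled reads, against 10.5% of all genes. Rsad2 encodes viperin, which makes a chain-terminating ribonucleotide, and it fell. It was at 2.84, 2.13 and 1.90 TPM in YAP and 0.225, 0.131 and 0.271 TPM in BrafYAP, with a log2 fold change of -1.43 (SE 0.18) on log2(TPM + 1) and of -3.48 (SE 0.38) on scaled reads. The mean was 10.9-fold lower. Cmpk2, the nucleotide kinase that lies beside Rsad2 at chr12:26442746-26479837 (mm10) and can supply nucleotide to it, was less separated, with 181, 475 and 189 estimated reads in YAP and 72, 53 and 190 in BrafYAP, and YAP replicate 2 was high. Estimated reads are not corrected for depth. On scaled reads it was at 186, 581 and 195 in YAP and 79.8, 41.6 and 169 in BrafYAP, without overlap. Samhd1, which hydrolyzes deoxynucleotides, was at 6.30, 5.52 and 3.98 TPM in YAP and 2.31, 1.97 and 1.09 TPM in BrafYAP. Isg20, a ribonuclease, was at 3.80, 2.58 and 3.89 TPM in YAP and 1.65, 1.86 and 1.51 TPM in BrafYAP. Neither of these 2 overlapped between the groups, and both were lowest in BrafYAP replicate 6. Eif2ak2, the kinase PKR that stops translation on double-stranded RNA, and Samd9l, a growth and translation inhibitor, overlapped between the groups, with log2 fold changes on scaled reads of -0.57 and -1.96.

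The remaining induced genes were Ifi27, Ifi35, Ifi44 and Xaf1, and in all 4 every BrafYAP library was below every YAP library, against 17.1% of all genes on scaled reads. Ifi27, a small hydrophobic protein, was at 42.2, 33.6 and 33.3 TPM in YAP and 13.2, 12.7 and 19.4 TPM in BrafYAP. Ifi35 was at 15.8, 13.6 and 11.8 TPM in YAP and 4.60, 3.56 and 8.34 TPM in BrafYAP, and it overlaps another annotated gene. Xaf1, which antagonizes the inhibitor of apoptosis XIAP, had the widest change of these genes, with 5.42, 3.27 and 3.21 TPM in YAP and 0.620, 0.704 and 1.06 TPM in BrafYAP (limma adjusted p 0.0631). Ifi44 was at a log2 fold change of -1.94 on scaled reads.

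Per exonic length, the highest members were Ifitm3 and Ifitm2. Ifitm3 averaged 2219 exonic TPM in YAP and 1526 in BrafYAP, and Ifitm2 1147 and 1076, which made them first and second in both groups. Bst2 was next in YAP (495, against 135 in BrafYAP), followed by Ifi27 (390 and 167). Isg15 and Ifit3 stood close to each other in YAP, at 331 and 313 exonic TPM, and their ranges over the libraries overlapped. In BrafYAP they were at 35.8 and 43.0. Isg15 was thus the fifth highest member in YAP and the ninth in BrafYAP.

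BrafYAP replicate 6 stood apart from the other BrafYAP libraries in many of these genes. It was above both of them in 31 of the 39 members and below both in 4. The median ratio of replicate 6 to the mean of replicates 1 and 2 was 1.94 over the members and 0.914 over all genes. In 19 members replicate 6 was at least 2-fold higher, against 16% of all genes. The widest ratios were of Mx1 and Ifit1, both singled out after their values were seen. Mx1 had 317, 149 and 102 estimated reads in the YAP libraries and 11, 14 and 193 in BrafYAP replicates 1, 2 and 6, a 14.7-fold higher level in replicate 6. Ifit1 had 1831, 1233 and 422 estimated reads in YAP and 65, 69 and 984 in BrafYAP, a 13.9-fold higher level in replicate 6. Isg15 (1.77-fold), Rsad2 (1.52-fold) and Parp14 (1.34-fold) differed less, and Samhd1 (0.51-fold) and Bst2 (0.783-fold) were lower in replicate 6. The members therefore did not move together in that tumor. BrafYAP replicates 1 and 2 were below every YAP library in 37 of the 39 members, against 24.5% of all genes. In 9 of these 37 replicate 6 was not below, namely Ifit1, Mx1, Ifih1, Dhx58, Herc6, Eif2ak2, Samd9l, Ifitm1 and Ifitm3. Among all genes with that pattern replicate 6 was not below in 30.3%, so overlap through replicate 6 was no more frequent in the members.

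**Figure D3:**
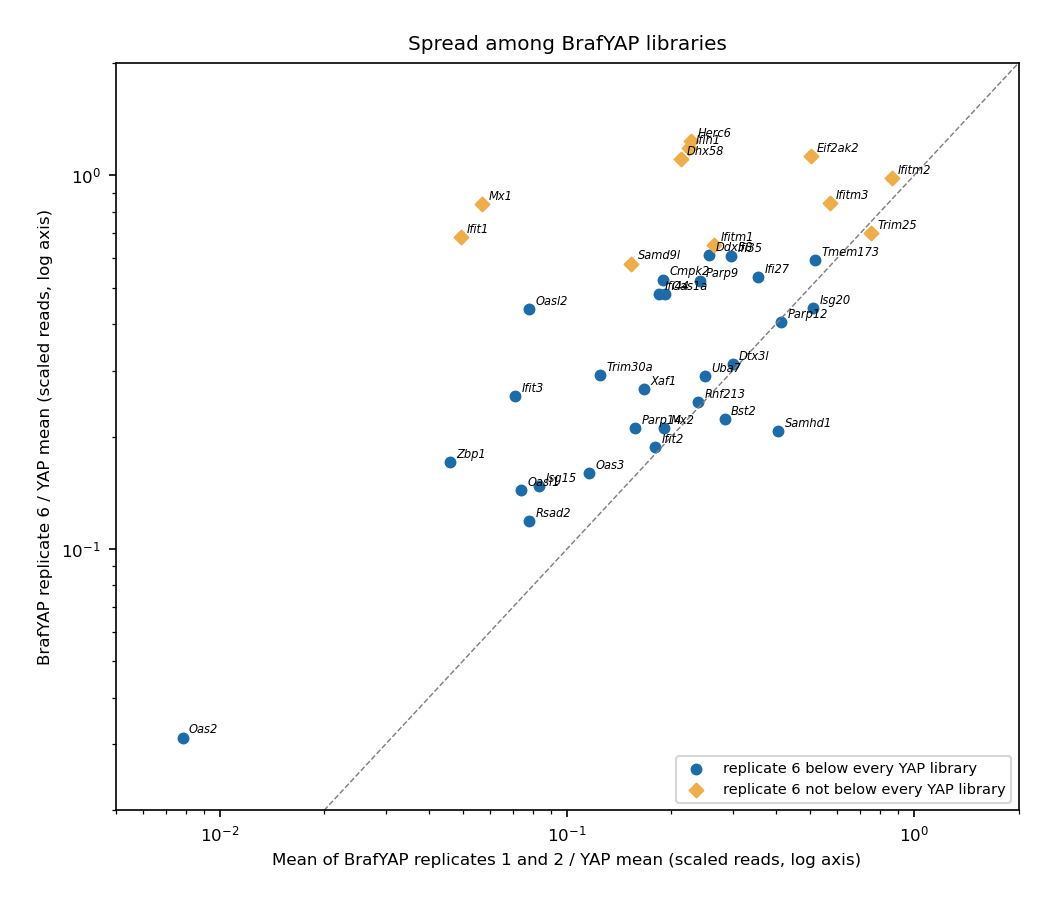
Scaled reads of each member in BrafYAP replicate 6 relative to the YAP mean (vertical, log scale) against the mean of BrafYAP replicates 1 and 2 relative to the YAP mean (horizontal, log scale), 1 point a gene, with the line of equality and in orange the 11 genes in which replicate 6 was not below every YAP library. Most of the 39 points lie above the line, Mx1 and Ifit1 farthest at 14.7-fold and 13.9-fold, while Samhd1 and Bst2 lie below it at 0.51-fold and 0.783-fold.

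Leaving replicate 6 out changed the calls. On scaled reads limma then called 14 of the 39 members, all lower, against 0.645% of all 16588 genes called lower. They were Isg15, Rsad2, Ifit3, Ifi44, Mx1, Mx2, Oas2, Oas3, Oasl1, Oasl2, Bst2, Trim30a, Xaf1 and Zbp1, with adjusted p from 0.0267 to 0.0469. Without replicate 6, 35 members were lower at an unadjusted p under 0.05, against 11.5% of all genes, the groups did not overlap in 37, against 24.8% of all genes, and the median log2 fold change was -2.24. Leaving out any other single library gave 0 calls among the members on this scale, with 27 to 30 of the 39 at an unadjusted p under 0.05 and medians from -1.98 to -1.70. This fit has 2 BrafYAP libraries, and the choice of library was made with its values known.

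Within the YAP group the members also had a common order. YAP replicate 1 was the highest YAP library in 29 of the 39 members, against 35.1% of all genes, and YAP replicate 3 the lowest in 30, against 25.1%. Leukocyte markers differed between the same libraries. All 9 macrophage and all 6 pan-leukocyte markers were lowest in replicate 3 among the YAP libraries, and 5 of the 9 macrophage markers were highest in replicate 2 and not in 1. The summed exonic TPM of 9 macrophage markers was 47340, 37700 and 14530 in YAP replicates 1, 2 and 3 and 14080, 10270 and 3734 in BrafYAP replicates 1, 2 and 6. In 7 of these 9 every BrafYAP library was below every YAP library, against 17.1% of all genes on scaled reads. Lyz2 carried most of the sum, and the complement genes C1qa, C1qb and C1qc were lower in every BrafYAP library too. The sum of 6 pan-leukocyte markers was 2757, 2652 and 1264 exonic TPM in YAP and 1348, 897 and 545.9 in BrafYAP, with 3 of 6 not overlapping, against the same 17.1% of all genes. Macrophages express interferon-induced genes, and the part of these cells in the members' levels was not tested.

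Other leukocytes left little trace. The 7 T cell markers summed to 24.6 exonic TPM or less in every library, the 5 markers of natural killer cells to 8.58 or less and the 5 of B and plasma cells to 6.01 or less. The T cell sums were 16.2, 11.7 and 9.87 in YAP replicates 1, 2 and 3. They were 5.82, 2.24 and 24.6 in BrafYAP replicates 1, 2 and 6. The 4 neutrophil markers summed to 14.6 or less. Of these Ly6g was at 0 in all 6 libraries. The receptor gene Csf3r was at 6.95, 13 and 2.69 exonic TPM in YAP and 1.48, 0.0992 and 0.502 in BrafYAP, without overlap. On scaled reads 17.1% of all genes were lower without overlap. S100a8 went the other way, with a log2 fold change on scaled reads of 1.15 and groups that overlapped. Neither gene passed the adjustment. S100a9 was highest in BrafYAP replicate 6, so the neutrophil markers did not share a direction. Of the 6 dendritic cell markers, Itgax, which macrophages also express, made up most of a sum of 79.4 to 193 in YAP and 27.7 to 67.9 in BrafYAP, with its smallest part in BrafYAP replicate 6. Siglech, the marker of the plasmacytoid dendritic cells that secrete interferon, was at most 1.86, in that library. Epithelial markers summed to 7544, 10280 and 23230 exonic TPM in YAP and 22930, 14550 and 9489 in BrafYAP, and 12 thyroid markers to 324 to 620 and 150 to 589. The sum of 6 fibroblast markers was 127 to 241 in YAP and 135 to 275 in BrafYAP, and those of 5 endothelial and 3 erythroid markers were at most 31.7 and 69.5. The endothelial sums were 5.96, 31.7 and 3.41 in YAP replicates 1, 2 and 3 and 2.565, 1.78 and 24.6 in BrafYAP replicates 1, 2 and 6.

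Libraries of the 2 groups with similar sums of leukocyte markers could be set side by side, a pair chosen after the sums were seen. YAP replicate 3 and BrafYAP replicate 1 had macrophage sums of 14530 and 14080 and pan-leukocyte sums of 1264 and 1348 exonic TPM. Single markers were less alike. Lyz2, which dominates the first sum, was at 11000 and 12000, while C1qa (773 and 461), C1qb (1440 and 709), C1qc (560 and 252) and Ptprc (8.28 and 2.98) were higher in the YAP library, as the members were. All 39 members were higher in this YAP library, 32 of them at least 2-fold, against 13.5% of all genes. The median ratio was 3.04 over the members and 1.05 over all genes. BrafYAP replicate 6, with the lowest macrophage sum of the 6 libraries, had higher levels of most members than BrafYAP replicates 1 and 2. Each of these is a comparison of single libraries, with no replicate, and the part of leukocytes in the members' levels was not tested.

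**Figure D4:**
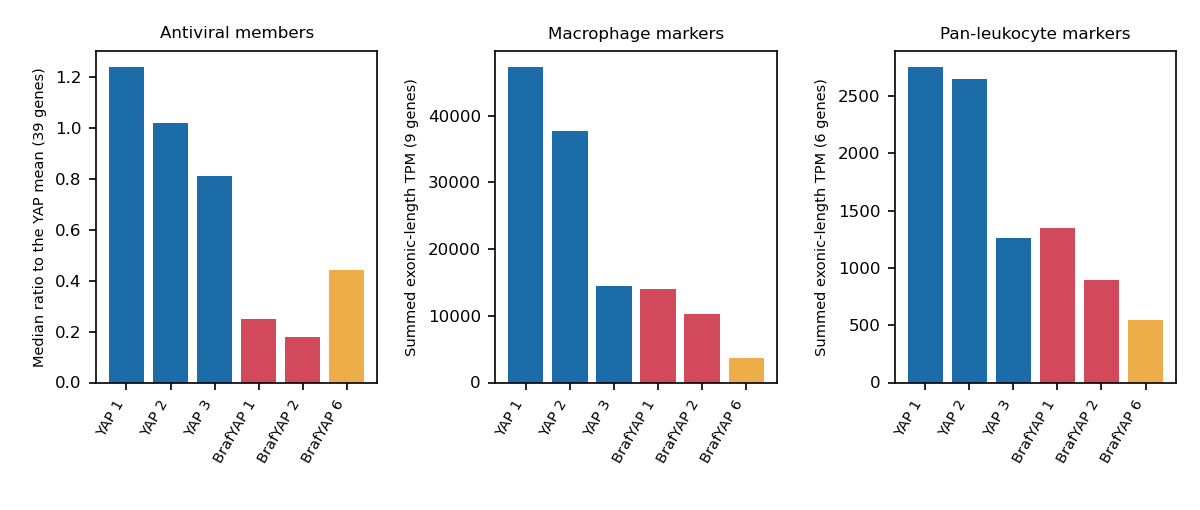
Bar charts with 1 bar a library, of the median ratio of the 39 members to the YAP mean (left), the summed exonic TPM of 9 macrophage markers (center) and that of 6 pan-leukocyte markers (right), with YAP in blue, BrafYAP replicates 1 and 2 in red and BrafYAP replicate 6 in orange. YAP replicate 3 and BrafYAP replicate 1 have nearly the same macrophage sum, 14530 and 14080, with median ratios of 0.813 and 0.249. Lyz2 makes up most of both sums, and C1qa, C1qb and C1qc are higher in that YAP library. BrafYAP replicate 6 has the lowest sum, 3734, and a ratio of 0.442.

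The rest of the interferon pathway was read from lists of its ligands, receptors, transcription factors, adaptors, regulators and further induced genes. Of the 105 listed genes in the table, 47 were tested on the TPM scale, 1 was called, and 24 were lower and 2 higher at an unadjusted p under 0.05, where of all genes 0.246% were called, 9.17% were lower and 10.7% higher. On scaled reads limma called 0 of 89, with 47 lower and 3 higher at an unadjusted p under 0.05, against 10.5% and 9.68% of all genes, and voom called 0 as well, with 51 at that level in either direction. The gene called was Cxcl10, the chemokine that attracts activated T cells. It was at 172, 66.4 and 84.9 TPM in YAP and 3.80, 4.12 and 8.36 TPM in BrafYAP, and it fell by 4.03 on the log2(TPM + 1) scale (SE 0.44, limma adjusted p 0.0468). On leaving out replicate 1 or 3 of YAP, or 1 or 2 of BrafYAP, 0 listed genes and 0 of all genes were called. In these fits 21 to 24 of the listed genes, and 1028 to 1142 of all genes, were at an unadjusted p under 0.05. Without YAP replicate 2, 4 were called, 2 lower and 2 higher, where 61 of all 7276 genes were called lower and 404 higher. Without BrafYAP replicate 6, 4 were called, all lower, where 12 of all 7258 genes were called lower and 8 higher. Usp18, under 1 TPM in every BrafYAP library, reached the minimum through the YAP libraries.

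**Figure D5:**
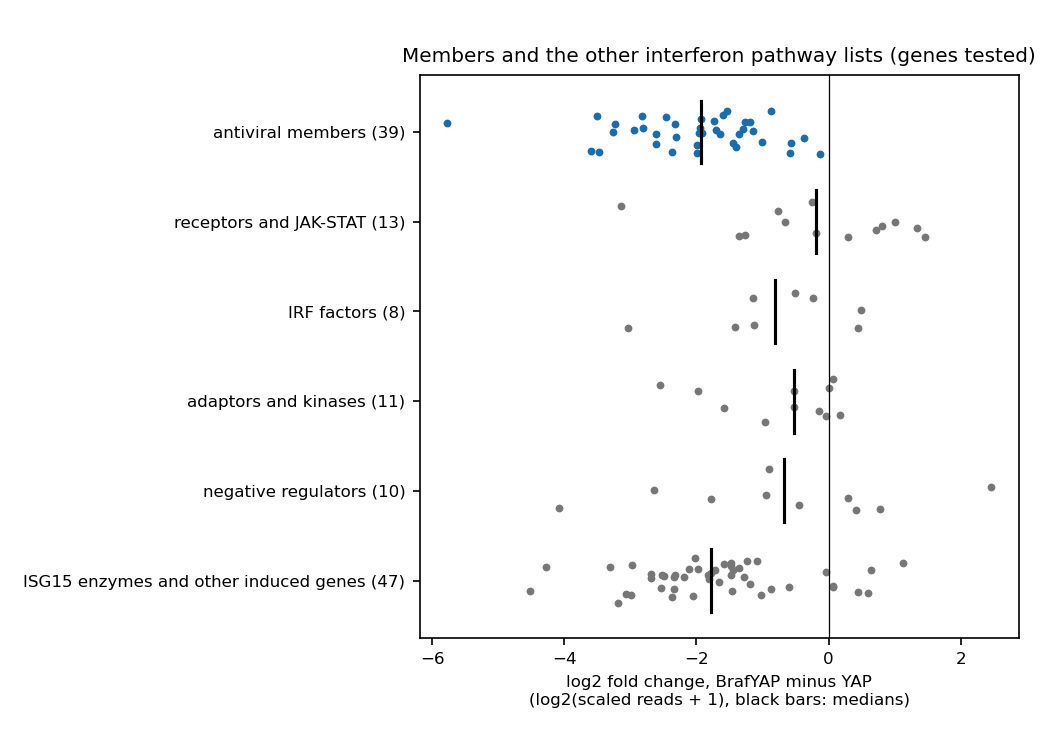
Log2 fold changes of scaled reads, BrafYAP relative to YAP, of the members and of the genes tested in each pathway list, 1 point a gene, with the number of genes in parentheses and the median as a black bar. The members have a median of -1.93 and the further induced genes one of -1.78, while receptors and JAK-STAT genes lie around a median of -0.19.

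Interferon itself was hardly detected. Ifnb1 had 10, 1 and 0 estimated reads in YAP replicates 1, 2 and 3 and 0, 0 and 31 in BrafYAP replicates 1, 2 and 6. The BrafYAP tumor with Ifnb1 reads had the highest median ratio of the members to the YAP mean in its group, 0.442. YAP replicates 2 and 3, with 1 and 0 reads, were at 1.02 and 0.813. These are a few reads in single libraries, and a link was not tested. Ifng had 3 reads at most, and none of the 11 ligand genes in the table reached the minimum for a test.

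In the list of receptors and JAK-STAT genes, 3 of 13 were lower and 2 higher at an unadjusted p under 0.05 on scaled reads. Of all genes 10.5% were lower and 9.68% higher. The median log2 fold change of the list was -0.19, against -0.12 for all genes. Ifnar1 was at 2.68, 7.79 and 4.65 TPM in YAP and 4.92, 4.78 and 2.49 TPM in BrafYAP. On scaled reads Ifnar1 was at a log2 fold change of -0.24, Ifngr1 at -0.77, Jak2 at -0.66 and Tyk2 at -0.19, and Ifnar2 (1.34), Jak1 (1.01) and Ifngr2 (1.45), the receptor chain for interferon gamma, had positive values, none of which passed the adjustment. The transcription factors downstream, which are themselves interferon-induced, were lower. Stat2 was at 1.76, 4.50 and 2.97 TPM in YAP and 1.32, 0.984 and 1.07 TPM in BrafYAP, and Irf9 at 25.4, 21.5 and 18.4 TPM in YAP and 8.61, 6.16 and 13.9 TPM in BrafYAP. Their log2 fold changes on scaled reads were -1.35 and -1.26, and neither passed the adjustment. Irf7, the factor that amplifies interferon production, was at 52.5, 59.3 and 35.3 TPM in YAP and 6.50, 3.06 and 9.93 TPM in BrafYAP, and missed the threshold with a limma adjusted p of 0.0511 on the TPM scale. Irf1 and Irf5 had log2 fold changes on scaled reads of -1.15 and -1.42. Stat2, Irf9, Irf7, Irf1 and Irf5 did not overlap between the groups.

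The negative regulators were divided. Usp18, which removes ISG15 and shuts off the receptor, was at 2.09, 2.11 and 1.59 TPM in YAP and 0.353, 0.186 and 0.430 TPM in BrafYAP (limma adjusted p 0.0511). Ptpn6, the phosphatase SHP-1 of blood cells, was at 17.5, 18.0 and 9.20 TPM in YAP and 6.69, 3.98 and 2.70 TPM in BrafYAP. Socs3, an inhibitor of cytokine receptor signaling, was the reverse, at 6.98, 45.6 and 9.42 TPM in YAP and 58.3, 94.2 and 92.0 TPM in BrafYAP (log2 fold change on log2(TPM + 1) 2.36, limma adjusted p 0.126). The groups did not overlap in any of these 3 genes. Usp18 and Ptpn6 stand against 17.1% of all genes that were lower without overlap on scaled reads. For Socs3 the share of all genes higher without overlap was not determined. Of the adaptors and kinases upstream of the IRF factors, Ikbke was at a log2 fold change of -1.17 on log2(TPM + 1), Mavs at -0.44 and Myd88 at -0.14, and none passed the adjustment. Among the further induced genes, Ube2l6, the conjugating enzyme of the ISG15 pathway, was at 16.6, 13.4 and 7.40 TPM in YAP and 2.48, 2.78 and 3.85 TPM in BrafYAP. With Isg15 and Uba7, 3 components of the conjugation pathway did not overlap between the groups, against 17.1% of all genes lower without overlap on scaled reads. The ligase gene Herc6 did overlap.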

How the data were processed

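RNA-seq values of 6 libraries of sorted thyroid tumor cells were grouped by the sample titles. Per the labels, cDNA was made by SMART-Seq with 12 cycles, and KAPA libraries with 8 more were sequenced as paired 50-nt reads. The labels give 3 pooled tumors for each YAP library and were followed, although the methods of the study describe 1 tumor per mouse for a replicate. The labels and methods give dox from 4 weeks of age, and a later start stands elsewhere in the study. The submitters' processing notes name bcl2fastq 2.2, STAR 2.6.1d, Partek and mm10. The authors deposited TPM from the Partek E/M model on an Ensembl annotation, with 0.0001 added. Column totals of the deposited TPM are 181218 and not those that TPM have by definition. All 6 columns were used.

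Low values times genomic span (GENCODE M21) came within 0.05 of whole multiples of 1 step per library for 71.7 to 76.1% of values. With exonic length this held for 22.5 to 25.5%. Division by span was inferred from this and is not stated in the methods of the study. Estimated reads are (TPM - 0.0001) × span / step, for 34640 genes, and total 26.2 to 36.9 M a library, the depth given. Their shares are too far from whole for a count test, and PCR duplicates carry no molecular identifier, so reads cover counting error only. Scaled reads keep the authors' scaling between libraries. Of the members, 39 mapped to 1 locus and 13 overlap another gene.

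The groups were compared by limma 3.58.1 (R 4.3.3, eBayes with trend, two-sided). The first fit used log2(TPM + 1) where the mean over libraries reached 1, and the other used log2(scaled reads + 1) where the mean reached 10, with Benjamini-Hochberg adjustment over all genes tested and a threshold of 0.05. The fits were tested on simulated data. A permutation of 3 against 3 libraries cannot go below 0.1 and was not used. Values in every library are given for members past the threshold, the 2 highest of each role group and the widest change of each group on either scale, and in the other lists for genes past the threshold or else those with the smallest p. An item of the pathway lists that the rule would name is not reported here. Genes named outside this rule are identified as such or given as part of a pathway's order. The members and lists were chosen with earlier results of these data known. Alternatives were the pseudocount, minimum, normalization, trend, weights, replicate block, each library left out, the length and voom.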

Additional observations from a re-analysis of the deposited data

How the results depend on the processing

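The direction was more stable than the calls. Over 581 values of single members under the alternatives, 504 kept direction and side of the threshold, 46 lost the call, 29 gained one and 2 reversed, both of Ifitm2 (0.049 with weights per library, and -0.28 to 0.077 with 1 library left out, the highest without YAP replicate 1). Against 18 genes, 4 members and 1 pathway gene called in the limma fit, the counts in this order were 1, 0 and 0 with a pseudocount of 0.1, 3, 2 and 1 with a minimum mean of 10, 0, 0 and 0 without a minimum, 79, 7 and 3 with quantile normalization, 1, 0 and 0 with median-ratio normalization, 1, 0 and 0 without the trend, 1393, 19 and 25 with weights per library, 0, 0 and 0 on scaled reads, 63, 5 and 2 on exonic TPM, and 0, 0 and 0 with voom. Of the 0 counts of members, 19 of 23 were at an unadjusted p under 0.05 with the pseudocount of 0.1 and without the trend, 18 of 23 with median ratios, 28 of 39 without a minimum and 31 of 39 on scaled reads and with voom. With 1 library left out, 0 to 465 genes, 0 to 7 members and 0 to 4 pathway genes were called. Among the 16 members under the minimum, tested on scaled reads, it gave 0 to 6, with 6 without BrafYAP replicate 6 and 0 without any other library. The cause was not tested.

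The median log2 fold change of the members, -1.28, was -1.89 with a pseudocount of 0.1, -0.75 without a minimum, -1.93 on scaled reads and -1.91 with voom, and -1.51 to -1.14 with 1 library left out. The pseudocount shrinks low genes, and the first and the third of these settings lessen that. Quantile normalization and scaled reads moved the median of all genes to -0.11 and -0.12. Weights per library used the gene-by-gene method, since the default did not converge.

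With the replicate number as a block, 0 genes, 0 members and 0 pathway genes were called, with 18 of 23 members at an unadjusted p under 0.05. Only numbers 1 and 2 occur in both groups, and same-numbered libraries did not deviate together (r -0.05 and 0.06 over genes), so they share only a number and no pairing was assumed.

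Depth limited Ifnb1, Ifng and Cgas, and with 3 libraries a group intervals spanned several-fold for most members.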
